A study of Mus musculus with 9 samples.

Results

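Mouse lung explants cultured with EPZ5676 were compared with control explants over all genes that passed a filter on low counts. The comparison uses 6 of the 9 RNA-seq libraries of the series, 3 from explants cultured with EPZ5676 and 3 from control explants, and 14643 of the 55286 genes in the deposited tables. Both groups started from wild-type E11.5 lung and were kept in culture for 72 h, and the remaining 3 libraries, from fresh E11.5 lung, enter only as an alternative below. The labels give no dose of EPZ5676, no vehicle for the controls, no sex, no strain and no number of lungs per library, and the label for cell type reads primary lung cell. Nothing in the labels says whether the 3 libraries of a group came from separate cultures, so the p-values speak only of the spread among these 6 libraries, part of which may be technical.

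EPZ5676 (pinometostat) blocks the activity of DOT1L, the enzyme that methylates histone H3 in the bodies of transcribed genes. DOT1L acts with partners of the transcription elongation machinery, and its mark is found over active genes. At this stage the mouse lung is a branching epithelial tree inside mesenchyme that expresses T-box and Fox factors and sends growth signals to the epithelium. During later development and in culture the epithelium forms airway cells (ciliated, secretory, basal and neuroendocrine) and alveolar cells.

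The 6 explant libraries held 6509563 to 9861452 expected counts. The labelled tissue was checked against lung markers. Nkx2-1, the transcription factor of lung epithelium, lay at 71.7 to 96.6 TPM (transcript abundance scaled by gene length and library size) and Vim, a filament gene of mesenchyme, at 314 to 467 TPM in the 6 libraries. Markers of neighbouring tissue were uneven. The summed TPM of a list of 18 heart muscle genes was 145 in Control 1 and 17.7 to 40.6 in the other 5, that of 18 liver genes was 349 in Control 1 and 34.1 to 94.9 in the others, and that of 17 cartilage genes was 395 in Control 1 and 96.6 to 231 in the others. Erythroid genes summed to 1326 TPM in Control 1 and 1193 in EPZ5676 1 against 161 to 687 in the others. Xist, the RNA of the inactive X chromosome, was abundant in 3 libraries (Control 1 281, Control 2 278 and EPZ5676 2 209.7 TPM) and nearly missing from Control 3, EPZ5676 1 and EPZ5676 3 (0.25 to 0.77 TPM). The Y-linked gene Ddx3y gave the mirror image, at 45.4 to 55.7 TPM in those last 3 libraries and at 0 to 0.44 TPM in the first 3. The groups therefore held unequal numbers of libraries of each kind, and the part of this in the results was tested by adding the Xist level as a covariate.

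The 6 libraries did not separate by treatment across the whole transcriptome. Of the 15 pairs of libraries, the pair with the smallest median absolute difference in log2 CPM (counts scaled by library size) was Control 1 with EPZ5676 1, at 0.14, and the next was Control 2 with EPZ5676 3, at 0.16. Pairs within the control group differed by 0.22, 0.26 and 0.31, and pairs within the EPZ5676 group by 0.19, 0.19 and 0.25. Along the leading principal component (35.2% of the variance) Control 3 stood apart from the other 5 libraries. Along the next, with 26.1%, EPZ5676 2 and EPZ5676 3 lay at the end opposite to Control 1, with EPZ5676 1 on the side of Control 1. Control 3 had the highest value of the 6 for 25.3% of genes and the lowest for 26.5%. The biological coefficient of variation, the spread beyond counting noise, was 23.1% in the control group and 18.0% in the EPZ5676 group.

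**Figure D1:**
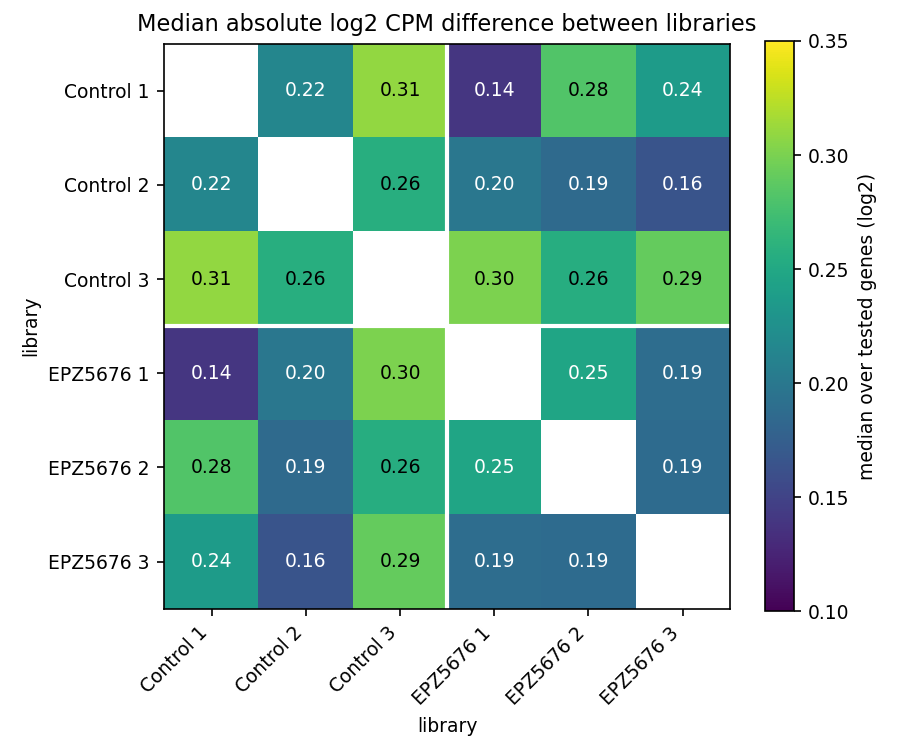
Median absolute difference in log2 CPM over the tested genes for each pair of the 6 libraries, with both axes giving the library and the colour and the printed number the difference. Control 3 is far from each other library, at 0.26 to 0.31, and the closest pair, Control 1 with EPZ5676 1, crosses the groups at 0.14.

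No gene passed the test. In edgeR's quasi-likelihood test with Benjamini-Hochberg adjustment over the 14643 genes, 0 genes lay above control and 0 below at an adjusted p under 0.05, and the lowest adjusted p was 0.459. At an unadjusted p under 0.05 there were 500 genes above control (3.41% of those tested) and 262 below (1.79%), or 5.2% together. These are 762 genes, where 732 would be expected by chance with no difference in any gene. DESeq2 on the same genes called 59 genes above control (0.403%) and 6 below (0.041%) at an adjusted p under 0.05, and edgeR with no filter on low counts called 49 above (0.172%) and 6 below (0.0211%). All 65 genes called by DESeq2 were among the 762 at an unadjusted p under 0.05 in edgeR, and 12 of the 59 were in the list of 30 motile ciliated cell genes. Every gene below is therefore described by its values in the 6 libraries and by whether the groups overlap, with its log2 fold change (EPZ5676 over control, from scaled counts) and its standard error (SE), and not as a changed gene.

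The genome-wide direction was even in number and uneven in size. The log2 fold change was above 0 for 49.4% of the tested genes, its median was -0.0027, and its 10th and 90th percentiles were -0.28 and 0.37. The median absolute log2 fold change of 0.13 was smaller than the median SE of 0.18. Among the larger differences the balance was toward the EPZ5676 group: 269 genes (1.84%) had a log2 fold change of 1 or more and 106 (0.724%) of -1 or less. All 3 libraries of one group lay beyond all 3 of the other in log2 CPM for 857 genes above control (5.85%) and 664 below (4.53%), 10.4% together. That share is close to what a random order of 3 against 3 libraries would give, so non-overlap alone does not set a gene apart.

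**Figure D2:**
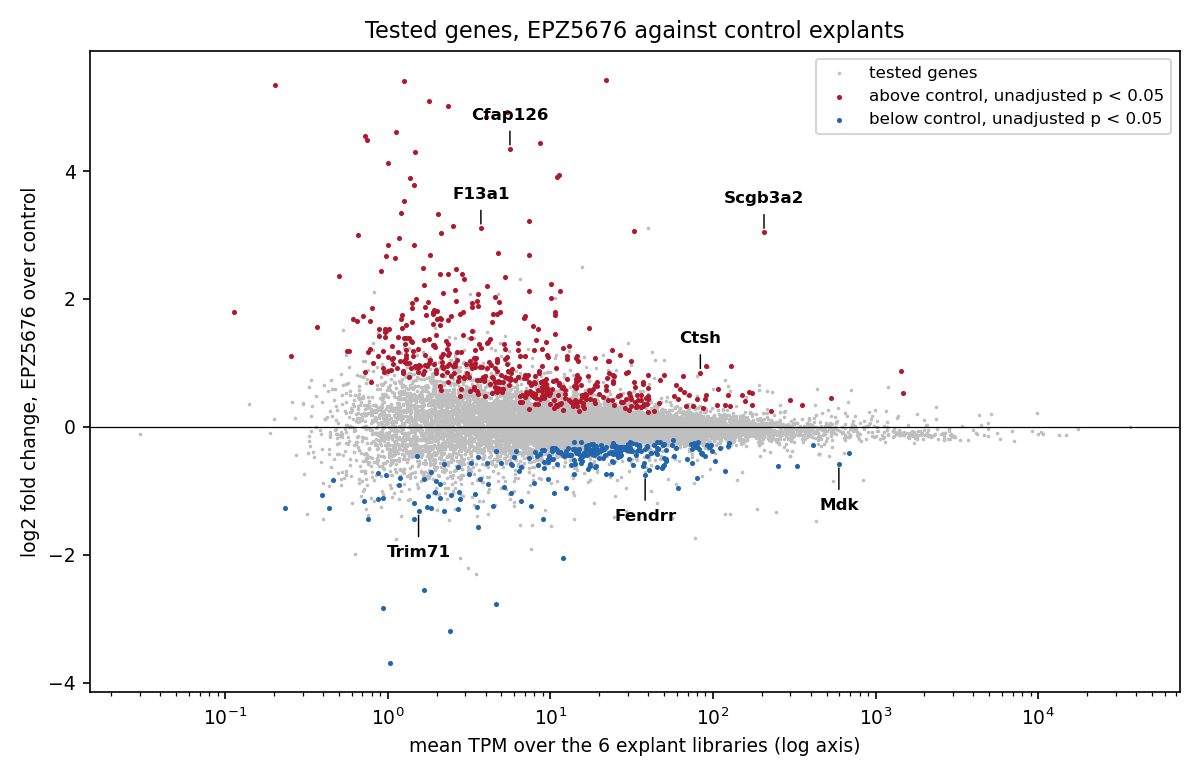
Log2 fold change of EPZ5676 over control explants (vertical) against the mean TPM over the 6 libraries (horizontal, log axis), 1 point per tested gene, with genes at unadjusted p under 0.05 in red above control and in blue below; 1 gene with a mean TPM of 0 is not drawn. The red points reach further from 0 than the blue ones and lie mostly at low TPM.

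The direction depended on how strongly a gene was expressed. Tested genes were divided into 5 equal groups by mean TPM. In the lowest group, 4.3 TPM and under, 56.9% lay above control, with 7.34% above and 1.54% below at an unadjusted p under 0.05. In the highest group, from 50.6 TPM up, 37.6% lay above control, with 1.13% above and 1.30% below. The value for the highest group rested on Control 3: without that library, 54.4% of it lay above control. Among protein-coding genes, divided likewise by their span in the genome, the longest group, from 78.9 kb up, stood apart in the other direction. In it 40.3% lay above control and 4.18% were below at an unadjusted p under 0.05, against 0.979% to 1.36% in the other 4 groups, so that it held 111 of the 239 protein-coding genes on the low side (46.4%). The share of the longest group on the low side ran from 1.28% without EPZ5676 3 to 6.18% without Control 2. On log2(TPM + 1) with limma it was 0.829%, close to the 0.753% of the shortest group, and the excess was smaller in TPM than in counts. It was not absent there: 49.2% of the longest group lay above control, against 57.4% of all tested genes. Above the median TPM of protein-coding genes 1.40% of the longest group (14 of 1003) were on the low side, against 0.515% of the other genes. At or below that median the order was the other way, at 0.484% against 0.622%. The cause of these differences was not tested.

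**Figure D3:**
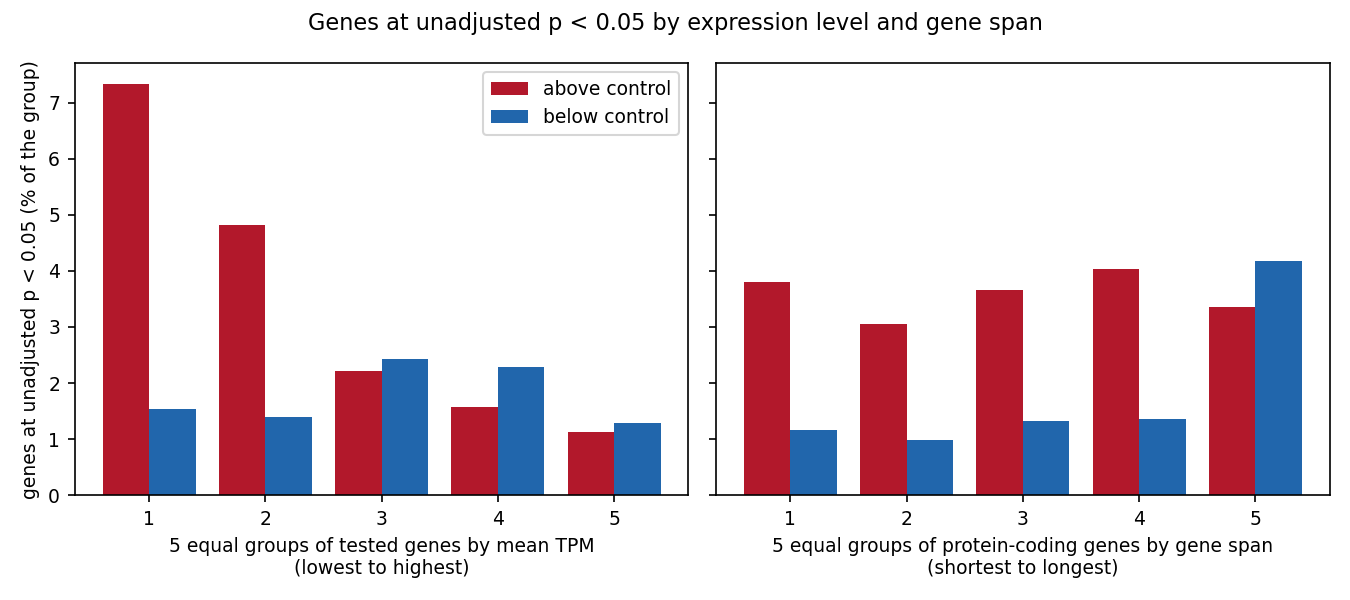
Share of genes at an unadjusted p under 0.05 in edgeR (vertical, in % of the group), above control (red) and below (blue), in 5 groups by mean TPM (left, lowest to highest) and in 5 groups of protein-coding genes by gene span (right, shortest to longest). The red bars fall from 7.34% to 1.13% with the level of expression, and the last blue bar on the right reaches 4.18%.

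Outside the axoneme, the genes that stood highest above control were a clotting factor of macrophages, a lysosomal protease of alveolar type 2 cells, a membrane protein of alveolar type 1 cells and a phosphatase. F13a1 (ENSMUSG00000039109, GRCm38 chromosome 13, 36867178 to 37050244), which encodes the A chain of coagulation factor XIII and is expressed by tissue macrophages, was at 0.81, 1.89 and 0.28 TPM in the controls and at 6.4, 8.77 and 4.33 TPM with EPZ5676. The groups did not overlap, and its log2 fold change was 3.11 (SE 0.46). Ctsh (ENSMUSG00000032359, chromosome 9, 90054152 to 90076089), the cathepsin that processes surfactant proteins, was at 52.6, 53.5 and 66.1 TPM in the controls and at 102, 105 and 123 TPM with EPZ5676, a log2 fold change of 0.85 (SE 0.13). Emp2 (ENSMUSG00000022505, chromosome 16, 10281749 to 10313968), a membrane protein abundant in alveolar type 1 cells, was at 38.6, 38.0 and 28.6 TPM against 55.9, 53.4 and 67.6 TPM. Its log2 fold change was 0.73 (SE 0.12). In both genes the lowest EPZ5676 library lay clearly above the highest control.

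Ptpn13 (ENSMUSG00000034573, chromosome 5, 103425192 to 103598303), a large cytoplasmic tyrosine phosphatase, was closely grouped, at 14.8, 14.8 and 13.7 TPM in the controls and 23.4, 22.9 and 23.6 TPM with EPZ5676. Its log2 fold change was 0.65 (SE 0.10), and leaving out any of the 6 libraries gave 0.57 to 0.71. Ddc, the decarboxylase that makes serotonin and dopamine, was at 12.6, 15.1 and 17.4 TPM against 25.1, 35.8 and 30.2 TPM, a log2 fold change of 1.03 (SE 0.18). Ddc also marks neuroendocrine cells, but the other 6 tested members of the list of 15 neuroendocrine genes lay below control. Kbtbd11 was at 0.7 to 1.25 TPM in the controls and at 3.25, 2.69 and 8.49 TPM with EPZ5676, highest in EPZ5676 3. Kcnj15, a potassium channel, had a log2 fold change of 2.00 (SE 0.31) in counts, whereas its TPM values overlapped, at 0.54, 2.03 and 0.42 in the controls and at 2.59, 1.88 and 1.5 with EPZ5676, so its call of non-overlap depended on the unit.

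The remaining leaders by p were genes of motile cilia. Iqcg was at 1.06, 1.53 and 1.99 TPM in the controls and 5.73, 2.73 and 11.3 TPM with EPZ5676. Cfap126 was at 0.57 to 0.73 TPM against 6.92, 4.41 and 20.6 TPM, and Dnah6, an axonemal dynein heavy chain, at 0.05 to 0.11 TPM against 1.1, 0.34 and 2.7 TPM. EPZ5676 3 was the highest and EPZ5676 2 the lowest of the treated libraries in all 3 genes, as in Ttc25, Ttc21a, Rsph4a and Iqub. Of the 30 genes on the motile ciliated list 24 were tested, all 24 lay above control, and 20 were above at an unadjusted p under 0.05. They are 20 of the 500 genes on that side.

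The smallest p-values below control belonged to genes of several kinds, led by a long non-coding RNA and a growth factor. Fendrr (ENSMUSG00000097336, chromosome 8, 121054882 to 121083110), a long non-coding RNA next to Foxf1, was at 57.6, 42.5 and 46.0 TPM in the controls and at 34.7, 23.8 and 25.3 TPM with EPZ5676, without overlap, and its log2 fold change was -0.75 (SE 0.14). Mdk (ENSMUSG00000027239, chromosome 2, 91929805 to 91932297), which encodes midkine, a heparin-binding growth factor, was the most abundant of these genes. It was at 781, 703 and 630 TPM against 589, 404 and 464 TPM, a log2 fold change of -0.58 (SE 0.12). Trim71 (ENSMUSG00000079259, chromosome 9, 114507133 to 114564369), a target of let-7 that keeps early embryonic cells undifferentiated, was at 2.62, 2.06 and 1.92 TPM against 1.31, 0.74 and 0.65 TPM, a log2 fold change of -1.32 (SE 0.26). The highest treated library was EPZ5676 1 in each of the 3 genes, and it still lay below the lowest control.

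Sox11, a transcription factor of embryonic progenitors, was at 20.6 to 21.1 TPM in the controls and at 16.8, 11.9 and 14.3 TPM with EPZ5676. Igf2bp1, an RNA-binding protein of fetal growth, was at 27.5, 19.4 and 17.2 TPM against 13.6, 12.6 and 12.5 TPM. Meis1, which binds DNA together with HOX proteins, was at 85.8, 73.6 and 83.0 TPM against 62.6, 63.4 and 49.95 TPM, a log2 fold change of -0.51 (SE 0.13). Shisa2, an inhibitor of WNT and FGF receptors, was at 25.1 to 30.8 TPM against 15.8 to 18.5 TPM, and Fndc3c1 at 7.09 to 8.8 TPM against 4.78 to 5.37 TPM. Cyp51, a demethylase of cholesterol synthesis, was at 85.7 to 89.7 TPM against 46.3 to 71.0 TPM, lowest in EPZ5676 2. Hoxaas2 was at 6.65 to 7.7 TPM against 2.88 to 5.25 TPM; it is antisense to the Hoxa cluster, and because the counting is not stated to use strand, its reads cannot be told apart from those of the genes it overlaps. Vopp1, Arhgap28, a RhoA-regulating protein, Cachd1 and the collagen gene Col26a1 completed the 15 smallest p-values below control, with log2 fold changes of -0.44, -0.61, -0.39 and -0.74. Of these 4, only Vopp1 kept the groups apart also in TPM (36.9 to 40.1 against 26.7 to 32.8). All 15 genes had an unadjusted p under 0.05 whichever of the 6 libraries was left out, and adjusted p-values of 0.459 to 0.672 in edgeR.

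**Figure D4:**
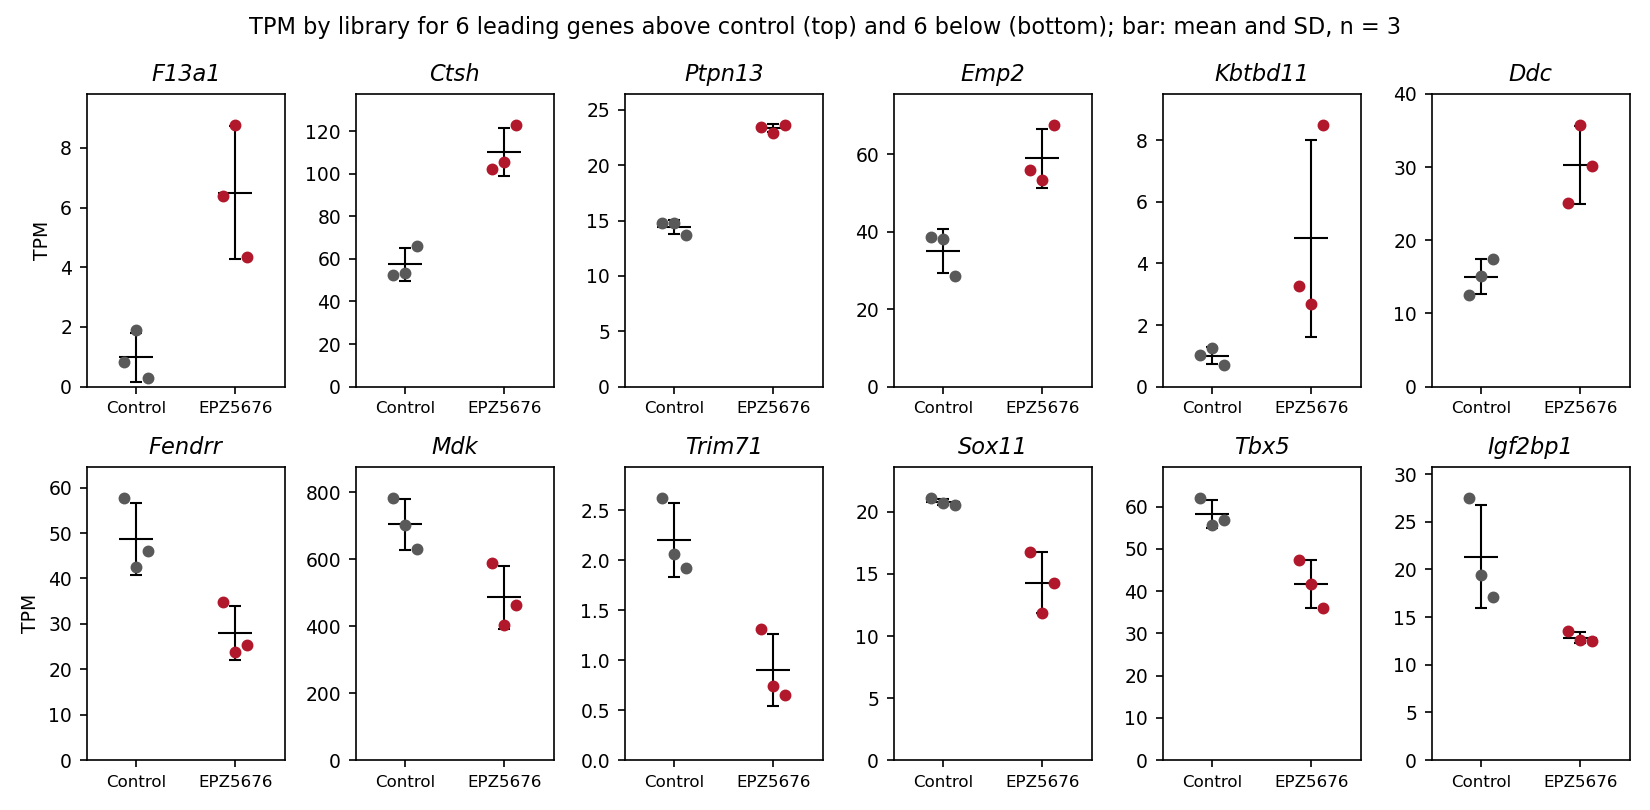
TPM in each library (vertical) for 6 leading genes above control (top row) and 6 below (bottom row), with control libraries in grey, EPZ5676 libraries in red, and the mean and SD of 3 libraries as bars. In all 12 panels the 3 libraries of one group lie beyond the 3 of the other. The genes were chosen among those whose groups were apart in log2 CPM, so this separation largely follows from the choice.

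Gene groups were then read by their counts, against the 3.41% of tested genes above and the 1.79% below at an unadjusted p under 0.05, and against the median of all genes, -0.0027. Of 59 lists, 23 had a median above 0 and 36 below. The sign was the same whichever library was left out for 19 of the 23 and 13 of the 36, and the other 27 lists turned in at least 1 of the 6 fits. Another scaling turned only lists with medians close to 0: 8 with upper-quartile scaling (FGF, Notch, Hippo, DOT1L partners, histone methylation, D cyclins, fatty acids and spliceosome) and 0 with RLE scaling. Some genes are in more than 1 list: Krt19 and Muc16 count for mesothelium as well as for epithelium, and Lyz2 and Ctsh for alveolar type 2 cells as well as for macrophages and lysosomes. Aqp3 counts for basal and squamous epithelium as well as for epithelial fluid transport.

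**Figure D5:**
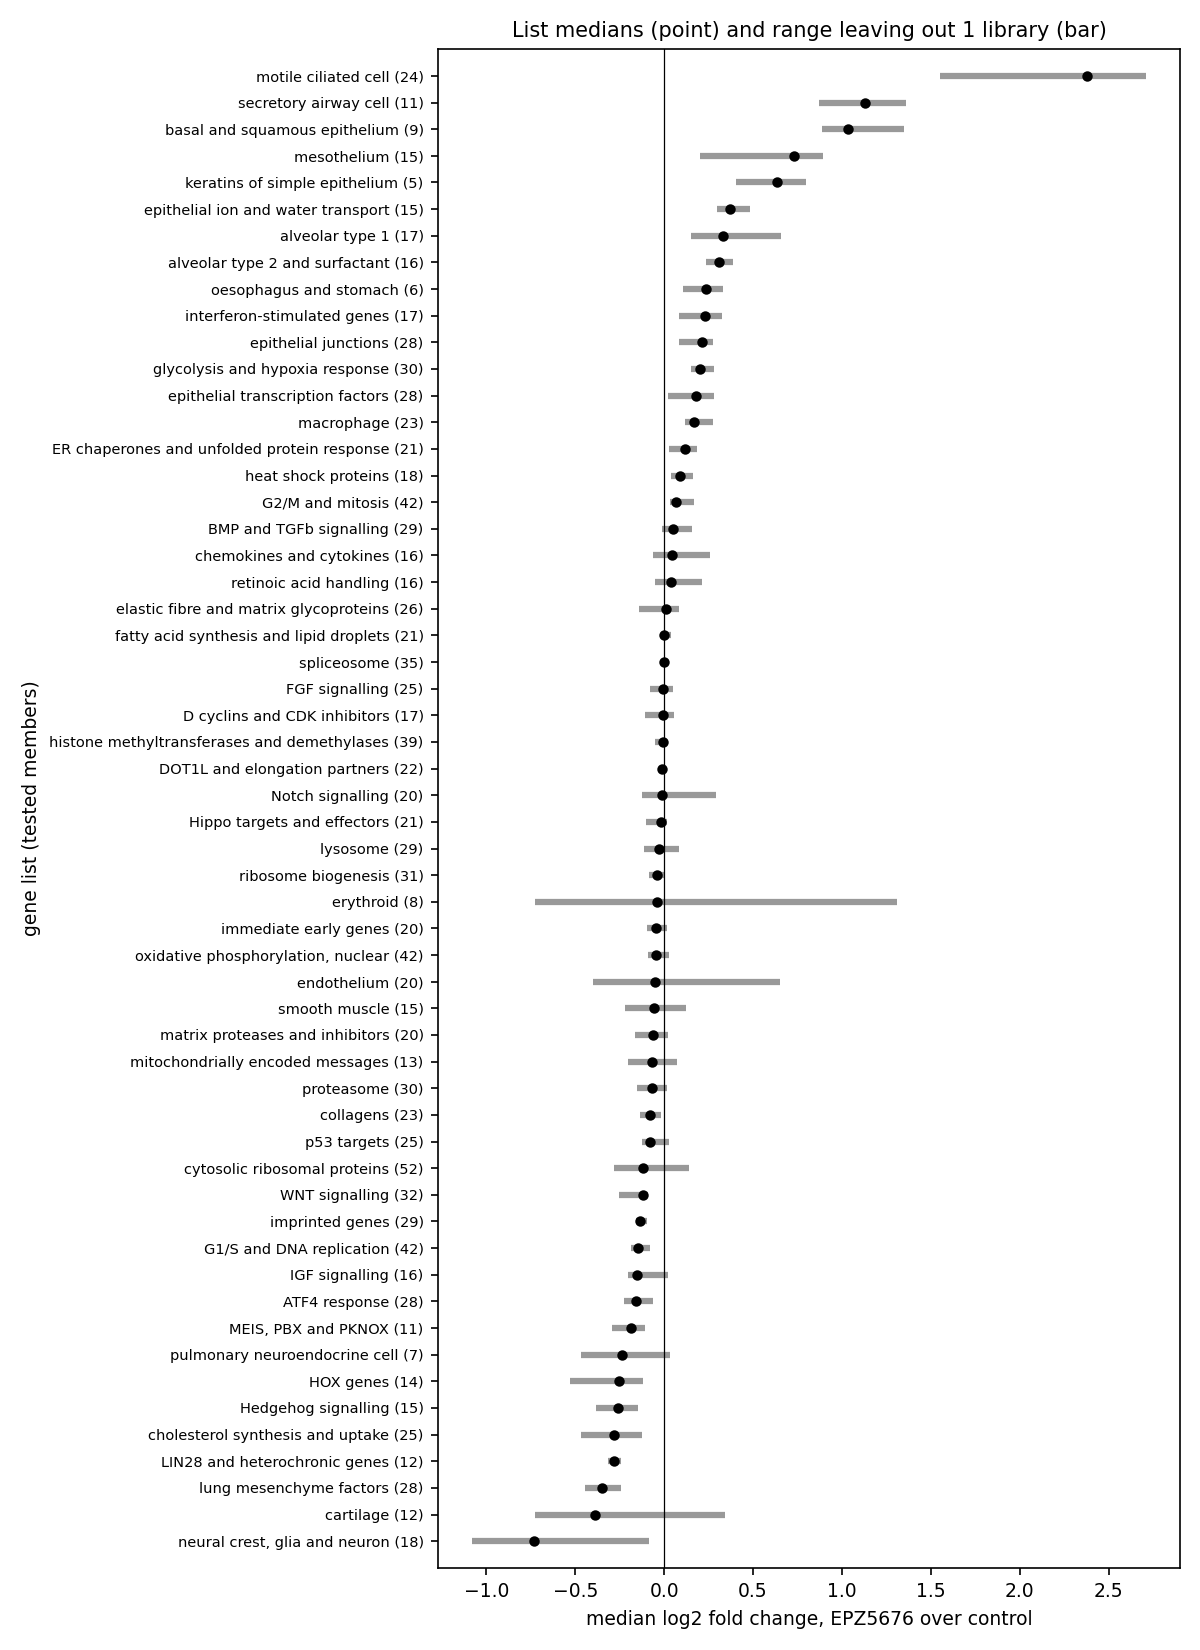
Median log2 fold change of EPZ5676 over control (horizontal) for each gene list with 5 or more tested members (vertical, with the number tested), from all 6 libraries (point) and as the range over the 6 fits that leave out 1 library (grey bar). Airway and surface epithelium lists lie at the top and mesenchyme factors near the bottom. The widest bars belong to erythroid, motile ciliated, cartilage and endothelial genes, and that of motile ciliated genes runs from 1.55 to 2.71.

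The epithelial lists outside cilia had medians above 0 for each airway and alveolar type except neuroendocrine cells, whose median of -0.24 was 0.03 without Control 3. Of 11 tested secretory airway genes 10 lay above control, 5 at an unadjusted p under 0.05 and 0 below, with a median log2 fold change of 1.13. Scgb3a2, a secretoglobin of the early airway, was at 23.3, 59.0 and 47.4 TPM in the controls and 356, 172 and 579 TPM with EPZ5676. Cbr2, a carbonyl reductase of club cells, was at 1.47 to 5.61 TPM against 15.6 to 19.2 TPM. Muc16, a membrane mucin, was at 2.24 to 4.17 TPM against 6.22 TPM or more in each treated library. Muc5b and Lypd2 were the other two at an unadjusted p under 0.05.

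Of 9 tested genes of basal and squamous epithelium 8 lay above control, 5 at an unadjusted p under 0.05, with a median of 1.03 that stayed between 0.89 and 1.35 without any library. The keratin Krt15 was at 5.85, 6.18 and 2.19 TPM against 10.5, 8.57 and 16.1 TPM. Sfn, an epithelial 14-3-3 protein, was at 5.53, 6.14 and 1.28 TPM against 13.7, 10.6 and 13.3 TPM, and Perp, a desmosome-associated protein, was at 6.54 to 14.8 TPM against 15.9 to 27.7 TPM. Control 3 was the lowest of the 6 libraries in all 3 genes. Trp63, the transcription factor that defines basal cells, overlapped between the groups, at 0.5 to 1.55 TPM against 0.94 to 2.57 TPM.

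Channels and pumps of epithelial fluid transport showed the same side, though Aqp3 is also on the basal and squamous list. Of 15 tested members 14 lay above control and 5 did so at an unadjusted p under 0.05, with a median of 0.37 (0.30 to 0.48 when 1 library was left out). The glycerol and water channel Aqp3 was at 0.51 to 1.14 TPM in the controls and at 2.48, 4.33 and 6.28 TPM with EPZ5676, and the water channel Aqp4 was at 0.58, 1.36 and 2.74 TPM against 2.65, 7.5 and 5.06 TPM. Aqp4 overlapped between the groups in TPM but not in log2 CPM. Scnn1a, a subunit of the epithelial sodium channel, was at 1.23 to 2.53 TPM against 2.92 to 7.53 TPM. The chloride channel gene Ano1 was at 21.5 to 26.7 TPM against 35.6 to 50.4 TPM, and the sodium pump subunit Atp1b1 at 62.4 to 95.5 TPM against 99.2 to 106 TPM.

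Among 17 tested alveolar type 1 genes 16 lay above control and 6 at an unadjusted p under 0.05. The median of 0.33 was 0.15 without Control 1, 0.18 without EPZ5676 2 and 0.66 without Control 3. Besides Emp2 these included both caveolins, the coat proteins of caveolae. Cav1 was at 92.2, 78.2 and 80.6 TPM in the controls and 136, 142 and 119 TPM with EPZ5676, and Cav2 at 10.9 to 18.0 TPM against 23.7 to 45.5 TPM. Lmo7, a protein of adherens junctions, was at 25.2 to 36.5 TPM against 40.7 to 57.9 TPM. The alveolar type 2 list had 14 of 16 tested members above control and 5 at an unadjusted p under 0.05 (median 0.31). The surfactant protein gene Sftpb was at 12.1 to 16.4 TPM against 21.9 to 36.2 TPM and Sftpa1 at 9.2 to 16.8 TPM against 20.03 to 30.9 TPM. Sftpc, the gene that defines these cells, overlapped widely, at 142, 372 and 1111 TPM against 501, 1445 and 691 TPM.

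General epithelial genes lay mostly above control as well. Among keratins of simple epithelium the 5 tested members lay above control, 3 at an unadjusted p under 0.05, with a median of 0.63 (0.40 without EPZ5676 3) and Krt19 at 47.3 to 80.0 TPM against 94.8 to 162 TPM. Of 28 junction genes 24 lay above control, with 3 at an unadjusted p under 0.05 (Ppl, Cldn8 and F11r) and a median of 0.21 that was 0.08 without Control 3 and 0.12 without EPZ5676 3. The summed TPM of the junction list was 677 to 1080 in the controls and 864 to 1112 with EPZ5676, and Epcam, a pan-epithelial surface protein, was at 132.5 to 217 TPM against 189 to 244 TPM. Both overlapped between the groups, and Control 3 was the lowest library. Of 28 epithelial transcription factors 18 lay above control. The ETS factor Ehf was at 1.19 to 4.52 TPM against 8.67 to 13.2 TPM and Elf5, an ETS factor of the distal epithelium, at 17.5 to 28.3 TPM against 32.3 to 49.9 TPM. Foxp1 and Etv4 were below control at an unadjusted p under 0.05, with log2 fold changes of -0.36 and -0.51. Fewer or more cells of a type and less or more RNA per cell cannot be told apart in these bulk libraries, and the part of epithelial content in these values was not tested.

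Mesothelial genes, of the lung's outer lining, had 13 of 15 members above control, 5 of them at an unadjusted p under 0.05, and a median of 0.73. This median was 0.20 without EPZ5676 2, the library in which Upk3b (32.5 TPM, against 7.64 to 13.98 TPM in the other 5) and the mesothelial factor Wt1 (16.8 TPM, against 7.16 to 9.17 TPM) were highest. Msln was at 0.33 to 2.65 TPM in the controls and at 3.84, 8.57 and 12.2 TPM with EPZ5676.

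Lung mesenchyme factors formed the list with the most members below control at an unadjusted p under 0.05. Of 28 tested genes 24 lay below control, 9 at an unadjusted p under 0.05, and the median of -0.35 stayed between -0.44 and -0.24 without any library. Besides Fendrr and Sox11, 4 T-box genes were among the 9. Tbx5 was at 62.0, 55.8 and 57.0 TPM in the controls and 47.5, 41.7 and 36.1 TPM with EPZ5676, and Tbx4, which acts with it in lung budding and airway cartilage, was at 66.9, 65.2 and 64.7 TPM against 56.7, 48.5 and 42.1 TPM. Tbx3 and Tbx2 had log2 fold changes of -0.43 and -0.34. Foxf1, the main Fox factor of lung mesenchyme, was at 52.8 to 72.8 TPM against 33.3 to 58.3 TPM, where EPZ5676 1 overlapped the controls. Meox2, at 0.43, was the member above control at an unadjusted p under 0.05.

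Other mesenchymal products were divided between the sides. Vim was at 330 to 467 TPM in the controls and 314 to 403 TPM with EPZ5676. Of 23 collagens 9 lay above control, with 1 at an unadjusted p under 0.05 on each side, Col12a1 above and Col26a1 below. Of 15 smooth muscle genes 7 lay above control and 0 had an unadjusted p under 0.05. Among 26 matrix glycoproteins 13 lay above, and Lox, a collagen and elastin crosslinking enzyme, was the 1 at an unadjusted p under 0.05, at 57.1 to 79.0 TPM against 74.5 to 111 TPM. Among 20 proteases and their inhibitors it was Adamts5, an aggrecan-cleaving protease, at 2.0 to 2.97 TPM against 3.69 to 6.22 TPM.

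HOX genes and their cofactors lay mostly below control. Of 14 tested HOX genes 12 were below, 3 at an unadjusted p under 0.05, with a median of -0.25. That median was -0.12 without Control 2 and -0.13 without EPZ5676 3, and -0.53 without Control 1 and -0.51 without EPZ5676 2. Hoxa4 was at 20.2, 12.5 and 16.5 TPM in the controls and 8.19, 11.99 and 5.53 TPM with EPZ5676, and Hoxa2 at 15.7 to 18.9 TPM against 7.69 to 13.4 TPM. The third was Hoxb3. Of 11 MEIS, PBX and PKNOX genes 9 were below, 3 at an unadjusted p under 0.05. Besides Meis1 these included Meis2, at 31.1 to 35.3 TPM against 25.2 to 30.6 TPM, whose unadjusted p was under 0.05 in 1 of the 6 edgeR fits that left out a library.

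The RNA-binding proteins and other genes of the LIN28 and let-7 system, which mark fetal growth, had 9 of 12 tested members below control. Of these, 5 had an unadjusted p under 0.05, and the median of -0.28 stayed between -0.31 and -0.24 when 1 library was left out. The 5 were Trim71, the 3 IGF2 mRNA-binding proteins and Hmga2, a chromatin protein of growing embryonic tissue. Igf2bp3 was at 34.7 to 51.9 TPM against 27.9 to 39.4 TPM, Igf2bp2 at 81.6 to 91.9 TPM against 75.0 to 77.9 TPM, and Hmga2 at 41.6 to 66.9 TPM against 31.3 to 48.3 TPM. Lin28b itself had a log2 fold change of -0.35 (SE 0.29). Of the 29 tested imprinted genes, many of them growth regulators, 20 lay below control, with Ndn alone at an unadjusted p under 0.05 (31.5 to 38.8 TPM against 28.3 to 31.4 TPM).

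Among the signalling lists, WNT and Hedgehog genes lay mostly below control. Of 32 WNT genes 23 lay below control, 3 at an unadjusted p under 0.05, and 1 gene was above at that threshold. The median of -0.12 was -0.25 without EPZ5676 1 and -0.21 without Control 2. Among the 23 was Lef1, a nuclear effector, at 8.93 to 10.6 TPM against 4.86 to 8.75 TPM. Also below control was the feedback ligase Znrf3, at 12.6 to 13.4 TPM against 8.52 to 12.5 TPM. So was the receptor Fzd2, at 48.9 to 62.9 TPM against 40.8 to 51.1 TPM. The ligand Wnt5a was on the other side, with a log2 fold change of 0.33. Of 15 Hedgehog genes 13 lay below control and 3 did so at an unadjusted p under 0.05, among them the co-receptor Boc (40.9 to 69.7 TPM against 33.6 to 48.3 TPM) and the effector Gli2 (14 to 15.5 TPM against 8.17 to 14.5 TPM). Of 25 FGF genes 12 lay above control, with Fgf9, a ligand of mesothelium and epithelium, above at an unadjusted p under 0.05 and Etv4 below. Of 29 BMP and TGFb genes 19 lay above control, with Id1 alone at an unadjusted p under 0.05. The Notch ligand Jag2 had a log2 fold change of 1.06 (SE 0.23) in counts, but its groups overlapped in TPM, at 3.37 to 5.18 against 4.38 to 8.07. The Notch list as a whole had 10 of 20 members above. Its feedback gene Nrarp was above and Dtx1 below at an unadjusted p under 0.05. Of 16 IGF genes 10 lay below control, and apart from the 3 binding proteins above only Insr, the insulin receptor, did so at an unadjusted p under 0.05, while Igfbp7 was above (log2 fold change 0.80). Retinoic acid handling (9 of 16 above) and Hippo effectors (10 of 21 above) had 0 genes at an unadjusted p under 0.05.

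Growth genes differed little. In the list for G1/S and DNA replication 39 of 42 members lay below control, with a median of -0.15 and Rpa1, a subunit of the single-strand DNA binding protein, alone at an unadjusted p under 0.05. Of 42 genes of G2/M and mitosis 32 lay above, with a median of 0.07 and 0 at an unadjusted p under 0.05. Mki67, a marker of dividing cells, was at 83.4 to 123 TPM in the controls and 116 to 123 TPM with EPZ5676. Both medians kept their sign whichever library was left out, between -0.18 and -0.08 and between 0.03 and 0.17. Of 25 p53 targets 10 lay above control, with Perp above and Sesn2 below at an unadjusted p under 0.05. Trp53 itself, the p53 gene, was at 94.8 to 116 TPM against 78.1 to 98.5 TPM, a log2 fold change of -0.30 (SE 0.09), with an unadjusted p under 0.05 in each of the 6 leave-out fits. The 3 tested replication-dependent histone genes lay above control, of 28 listed, with Hist1h1d and Hist1h1c at an unadjusted p under 0.05; most of their messages lack the poly(A) tail, and near-identical copies make their counts uncertain. Of the 17 tested genes of the D cyclin, MYC and CDK inhibitor list 8 lay above control, with Mycl (log2 fold change 0.72) alone at an unadjusted p under 0.05.

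Stress lists differed in side. Of 28 ATF4 response genes 22 lay below control (median -0.16, and -0.06 without Control 2), with Sesn2 below and Nupr1 above at an unadjusted p under 0.05. Of 18 heat shock genes 13 lay above, with a median of 0.09 that was 0.04 without EPZ5676 3, 0.06 without EPZ5676 2 and 0.16 without EPZ5676 1. The chaperone Hspa4l was at 8.83 to 9.9 TPM against 18.9, 15.3 and 25.4 TPM, and Hspb1 at 8.07 to 12.9 TPM against 15.4 to 22.7 TPM. Of 21 genes of the unfolded protein response 16 lay above control, and of 20 immediate early genes 9; 0 genes of either list had an unadjusted p under 0.05.

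In metabolism the sterol pathway and glycolysis lay on opposite sides. Of 25 genes of cholesterol synthesis and uptake 23 were below control, 6 at an unadjusted p under 0.05, with a median of -0.28. Msmo1, a sterol demethylase, was at 136, 141 and 158 TPM in the controls and 107, 69.7 and 101 TPM with EPZ5676. EPZ5676 2 was the lowest library for Msmo1, and the list median was -0.13 without it and -0.47 without EPZ5676 1. The lysosomal cholesterol exporter Npc1, on the lysosome list, was at 28.8 to 39.9 TPM against 20.97 to 30.4 TPM, while 13 of 29 lysosomal genes lay above control. Of 21 genes of fatty acid synthesis 10 lay above, with Acacb above and the elongase gene Elovl6 below at an unadjusted p under 0.05.

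Of 30 genes of glycolysis and the hypoxia response 24 lay above control, 4 at an unadjusted p under 0.05, with a median of 0.20 that stayed between 0.15 and 0.28. The lactate exporter Slc16a3 was at 3.49, 2.9 and 2.23 TPM in the controls and 9.64, 13.7 and 9.18 TPM with EPZ5676, a log2 fold change of 1.70 (SE 0.32). Ldha, which makes lactate, was at 222 to 274 TPM against 307 to 387 TPM, and Aldoa, a glycolytic aldolase, at 191 to 231 TPM against 236 to 260.5 TPM. Car9, a hypoxia-induced carbonic anhydrase, was apart in counts and overlapped in TPM. Nuclear genes of oxidative phosphorylation (11 of 42 above), mitochondrial messages (2 of 13 above) and cytosolic ribosomal proteins (4 of 52 above) lay mostly below control, yet with medians of -0.05, -0.07 and -0.12 and 0 genes at an unadjusted p under 0.05. These 3 medians turned positive without Control 3, in which ribosomal proteins were highest (109995 summed TPM, against 79555 to 100451). Ribosome biogenesis (8 of 31 above), the proteasome (3 of 30 above) and the spliceosome (17 of 35 above) had medians of -0.04, -0.07 and 0.00 and 0 genes at an unadjusted p under 0.05. The proteasome median, too, turned positive without Control 3 (0.01).

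Macrophage genes lay mostly above control, led by F13a1. Of 23 tested members 17 were above, 5 at an unadjusted p under 0.05, with a median of 0.17 (0.12 to 0.28). The 3 chains of complement C1q, made by tissue macrophages, differed by similar amounts. C1qa was at 23.0, 29.3 and 10.6 TPM against 40.3, 30.7 and 42.7 TPM, C1qb at 9.13 to 28.6 TPM against 31.8 to 52.97 TPM, and C1qc at 9.3 to 29.6 TPM against 32.4 to 48.1 TPM. Control 3 was the lowest in all 3. The summed TPM of the macrophage list was 1335 to 1571 in the controls and 1515 to 1862 with EPZ5676 and overlapped. Csf1, the growth factor of these cells, was at 7.73 to 12.2 TPM against 10.9 to 16.7 TPM. Of 17 tested interferon-stimulated genes 15 lay above control, with H2-K1 alone at an unadjusted p under 0.05; its reads may be shared with other MHC class I genes. Of 16 chemokine and cytokine genes 9 lay above, Csf1 at an unadjusted p under 0.05, while Cxcl14 was below.

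Endothelial, erythroid and cartilage lists took their direction from single libraries. Of 20 endothelial genes 8 lay above control, with Gja5 alone at an unadjusted p under 0.05, and the median of -0.05 was 0.65 without Control 1 and -0.40 without Control 3. The erythroid median of -0.04 became 1.31 and the cartilage median of -0.39 became 0.34 without Control 1. Of 18 neural genes 15 lay below control, with a median of -0.73 that was -0.09 without Control 3, the library with the highest neural sum (394 TPM, against 209 to 264 TPM). The heart list had 4 tested members, of which 1 lay above control (0.25 on the log2 scale at most), and the liver list 2, of which both did. Of 6 tested genes of oesophagus and stomach 4 lay above control, led by Krt4, which is also on the squamous list.

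The target's own gene and its partners were near control. Dot1l was at 30.04, 23.2 and 18.8 TPM in the controls and 24.7, 17.4 and 20.3 TPM with EPZ5676, a log2 fold change of -0.20 (SE 0.11); an inhibitor of the enzyme need not alter its message, so this does not check the labels. Mllt3 and Mllt10, readers that recruit DOT1L, had log2 fold changes of 0.09 (SE 0.10) and 0.01 (SE 0.09). Of 22 genes of DOT1L and elongation partners 10 lay above control, the range over the list was -0.30 to 0.21, and Bcor alone had an unadjusted p under 0.05. Of 39 histone methyltransferases and demethylases 17 lay above control, and Kdm2b alone had an unadjusted p under 0.05 (18.3 to 26.6 TPM against 17.8 to 22.5 TPM).

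The counts moved when each library was left out in turn. Without EPZ5676 3, 324 genes lay above and 101 below control at an unadjusted p under 0.05, and 2 genes below control (Fam220a and Gm3608) passed the adjusted test in edgeR. Without Control 2 there were 512 and 422, and 1 gene above control (Ahcy) passed. The other 4 fits gave 463 to 559 above and 178 to 386 below, and 0 genes passed. Of the 762 genes, 227 had an unadjusted p under 0.05 in each of the 6 fits, 171 above control and 56 below, and 15 of the 171 were on the motile ciliated list. The sign of the log2 fold change was the same in all 7 fits for 51.0% of tested genes, 3797 above control and 3664 below. The fits share most of their libraries, so this sameness is no independent support.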

How the data were processed

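RNA from cultured mouse lung was sequenced as bulk libraries; TRIzol was used for extraction and 1 ug of RNA entered library preparation, per the labels' protocols. The authors deposited expected counts and TPM per gene, made with RSEM and Bowtie2 on mm10 per the submitters' processing notes; versions, strand setting and roles are not given in the sources used here. Expected counts, which need not be whole, were rounded, and 0 per-sample columns went unused. Genes were matched to the GENCODE annotation of GRCm38 for span and position. The main test was edgeR 4.0.16 (TMM scaling, filterByExpr with a minimum count of 10, robust quasi-likelihood F test, two-sided) on the 6 explant libraries, with 4 residual degrees of freedom and Benjamini-Hochberg adjustment over 14643 genes at a threshold of 0.05. DESeq2 1.42.0 and limma 3.58.1 on log2(TPM + 1) and log2(TPM + 0.1) were alternatives, with other scalings and filters, the 9-library fit, an Xist covariate, a replicate block and leaving out each library. The deposited TPM values are scaled by gene length and library size. The script was tested on simulated data. The groups by expression and gene span were added after seeing the data.

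Genes named are the 15 smallest p-values on each side (groups apart in log2 CPM, a mean of 1 TPM or more on the higher side, no predicted or clone names), up to 4 smallest p-values of each list, and 12 anchor genes such as Dot1l, Xist and Epcam; Sftpc, Trp63, Wt1, Tbx2, Meox2, Trp53, Lin28b and those in the last section were chosen after their values were seen. The members and lists were chosen with earlier results of these data known. Some genes that met the naming rule are not reported here. No sequence is printed, since none bears on these values. Counting depth, 6509563 to 9861452 expected counts per library, limits the precision of genes of low TPM.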

Additional observations from a re-analysis of the deposited data

How the results depend on the processing

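The main limits are 3 libraries a group, a control library that stands apart and unequal sex-linked RNA. The counts of 0 at adjusted p under 0.05 became 59 above and 6 below control in DESeq2 and 49 above and 6 below with no filter on low counts (28487 genes tested); leaving out 1 library gave 0 to 1 above and 0 to 2 below. The other settings gave 0 on both sides. The count of 500 above control at unadjusted p under 0.05 became 288 with a filter of 50 counts in 3 libraries and 809 with no filter, and ran from 324 to 559 leaving out 1 library. The count of 262 below became 425 with all 9 libraries in the fit, 104 and 111 with limma on log2(TPM + 0.1) and log2(TPM + 1), and 520 with no filter, and ran from 101 to 422 leaving out 1 library. The share of genes above control, 49.4%, was 48.1% with DESeq2 and with RLE scaling, 51.1% with the Xist covariate, 53.9% with upper-quartile scaling, 57.8% and 57.4% with limma on log2(TPM + 0.1) and log2(TPM + 1), and 48.8% to 51.2% leaving out 1 library; the cause was not tested. On log2(TPM + 1) with limma, 469 genes lay above control and 111 below at an unadjusted p under 0.05. These are 3.20% and 0.758% of tested genes, against 3.41% and 1.79% in counts. Of 59 list medians, 13 turned with limma on TPM, 13 without EPZ5676 2, 11 without Control 1 or Control 3 and 10 with the Xist covariate; of the 252 named genes, 14 turned without Control 3, and DESeq2 called 32 of them.

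Control and EPZ5676 libraries with the same replicate number deviated together for number 1 (r = 0.455) but not for 2 and 3 (0.083 and -0.061). Not every library correlated best with its own number. Deviations from a mean of 3 libraries depend on each other, so these values cannot decide whether the numbers pair the samples. With a replicate block 0 genes passed on either side, 518 lay above and 363 below at an unadjusted p under 0.05, and 50.4% lay above control.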

Other observations

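Among the 227 genes with an unadjusted p under 0.05 whichever library was left out, 53 of the 171 above control and 45 of the 56 below had a mean TPM of 10 or more. The following were chosen from the 227, with no limit on TPM, after their values were seen, and 0 of them passed the adjusted edgeR test. Of those above control, Maob, a monoamine oxidase, was at 6.09 to 9.4 TPM in the controls and 14.4 to 20.4 TPM with EPZ5676, and Ces1d, a carboxylesterase, at 22.5 to 31.4 TPM against 40.5 to 66.5 TPM. S100a14, a calcium-binding protein of epithelium, was at 2.05 to 5.54 TPM against 9.84 to 26.7 TPM. Npnt, a matrix ligand of integrins, was at 46.6 to 51.1 TPM against 70.5 to 83.7 TPM, and Kitl, the ligand of the KIT receptor, at 24.8 to 37.8 TPM against 39.4 to 42.0 TPM. Arg1, an arginase, was at 0.38 to 0.81 TPM against 2.02 to 3.8 TPM. Otor was at 1.31 to 1.46 TPM in the 3 controls and at 11.1, 25.9 and 3.29 TPM with EPZ5676, a wide spread on the treated side. Trp73 and Myb, transcription factors known from multiciliated cells, were at 0.04 to 0.53 TPM against 1.11 to 7.47 TPM and at 1.98 to 5.11 TPM against 7.08 to 26.3 TPM.

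Of those below control, Tshz2, a zinc finger factor, was at 12.5 to 14.7 TPM in the controls and 5.11 to 8.64 TPM with EPZ5676, a log2 fold change of -1.03 (SE 0.28). Hmgn3, a nucleosome-binding protein, was at 88.2 to 118 TPM against 70.7 to 82.7 TPM, and Tcf12, a basic helix-loop-helix factor, at 124 to 151 TPM against 106 to 116 TPM. Reck, an inhibitor of metalloproteases, was at 15.6 to 21.7 TPM against 12.96 to 14.8 TPM. Ank2, an ankyrin, was at 20.2 to 24.0 TPM against 14.7 to 19.5 TPM. The actin-bundling gene Fscn1 was at 106 to 150.2 TPM against 59.0 to 106 TPM.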
